A study of Homo sapiens with 4 samples.

Results

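The miRNAs described here are the human entries of an Agilent miRNA array that run from miR-1178 to miR-1308, with any letter, arm or version suffix. The entries miR-1185, miR-1274a and miR-1274b were left out. The rule uses names and no measured values, and earlier results of these data, those of miR-1274b included, were known when it was set. It gave 100 of the 851 human miRNAs on the array. RNA came from 2 groups of the human colon cancer line HCT116, each with 2 arrays. The group called MG (migrated) holds the highly migratory cells, and the group called non-MG holds the low migratory cells. Per the study's methods, both were separated from the p53 wild-type line by repeated passage through a porous membrane, MG from the cells that crossed it and non-MG from those that stayed above. The labels give no further treatment, and both are selected subpopulations of 1 cell line. The labels do not say whether the replicates are separate cultures, so p-values measure the spread between these samples, which may be technical.

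MicroRNAs are short RNAs that are cut from hairpin precursors and guide the silencing machinery to mRNAs, mainly through bases 2 to 8 of the mature strand, called the seed. Names are numbered in the order in which miRNAs were registered. The lowest numbers therefore went to miRNAs found by cloning, many of them abundant and conserved, and the numbers treated here were given when deep sequencing of small RNA had come into use. Many of these later entries rested on few reads. Some were read from mirtrons, which are short introns folded as hairpins, and some have sequences that match transfer RNA, small nucleolar RNA or small nuclear RNA. Several were later withdrawn from the registry.

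Of the 100 members, 12 were flagged as detected by the scanner software on at least 1 array, and 11 of them on all 4. The mature sequences of 9 of the 12 were matched in the RefSeq tables of assembly GRCh38.p14. They are printed 5′ to 3′ with the seed in capitals, since the sequence fixes which RNA a probe can bind, and no seed was shared between any of them.

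miR-1202: gUGCCAGCugcagugggggag
miR-1225-5p: gUGGGUACggcccagugggggg
miR-1246: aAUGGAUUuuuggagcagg
miR-1260a: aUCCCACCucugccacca
miR-1268a: cGGGCGUGgugguggggg
miR-1275: gUGGGGGAgaggcuguc
miR-1288-3p: uGGACUGCccugaucuggaga
miR-1290: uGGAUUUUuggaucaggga
miR-1305: uUUUCAACucuaaugggagaga

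In GRCh38.p14, miR-1246 lies at chr2:176601024-176601042 on the minus strand, outside the bounds of any other listed gene. miR-1290 lies at chr1:18897078-18897096 on the minus strand, within the bounds of ALDH4A1, which encodes a mitochondrial enzyme of proline breakdown. miR-1260a lies at chr14:77266231-77266248 on the plus strand, within the bounds of NGB, the neuroglobin gene. miR-1225-5p lies at chr16:2090263-2090284 on the minus strand, within the bounds of PKD1, the gene of polycystin 1. miR-1305 is found at chr4:182169343-182169364 on the plus strand in TENM3, and miR-1288-3p at chr17:16282058-16282078 on the plus strand in PIGL. miR-1202 is at chr6:155946809-155946829 on the plus strand in the non-coding gene LOC101928923. miR-1275, at chr6:34000018-34000034, and miR-1268a, at chr15:22225308-22225325, are on the minus strand and lie in no other listed gene. The other 3 detected members are miR-1207-5p, miR-1280_v18.0 and miR-1308_v15.0.

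miR-1246 and miR-1290, both described as markers of stem-like tumour cells, carry the longest stretch of sequence that any pair of these 9 has in common. The stretch has 12 bases and is in capitals here, because a shift in its position separates their seeds.

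miR-1246: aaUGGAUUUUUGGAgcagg
miR-1290: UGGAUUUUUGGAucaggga

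The run starts at base 3 of miR-1246 and at base 1 of miR-1290. Among all 36 pairs of the 9 sequences the next longest common run had 9 bases, and 3 pairs shared 8 or more.

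Few of the sequencing-era entries gave a signal in HCT116. The software flagged 11 of the 100 members (11%) in each non-MG sample, 12 (12%) in MG replicate 1 and 11 (11%) in MG replicate 2. Of the 751 other human miRNAs it flagged 16.2% and 14.8% for non-MG and 16.0% and 14.1% for MG. The members' share lay below that of the others on every array. Of the members' spots, 9.38% and 8.31% were well above background for non-MG and 9.44% and 7.44% for MG. For the other human miRNAs it was 12.6%, 10.9%, 11.8% and 9.87% in the same order.

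Detection varied with the number in the name. Of the 229 entries from miR-1 to miR-199, 32.8% were detected at least once and 28.4% on every array. The shares fell to 16.5% and 13.4% of the 127 entries from miR-200 to miR-384. They were 5.09% and 2.78% of the 216 entries from miR-409 to miR-599, and 5.26% and 3.01% of the 133 entries from miR-600 to miR-944. With 12% and 11%, the sequencing-era entries stood above both of these bands and below the first 2. The 26 entries from miR-1321 to miR-1915 had 3 detected entries, 2 of them on every array. These shares describe 4 arrays of 1 cell line and were not tested, since entries of an array are not replicates.

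**Figure D1:**
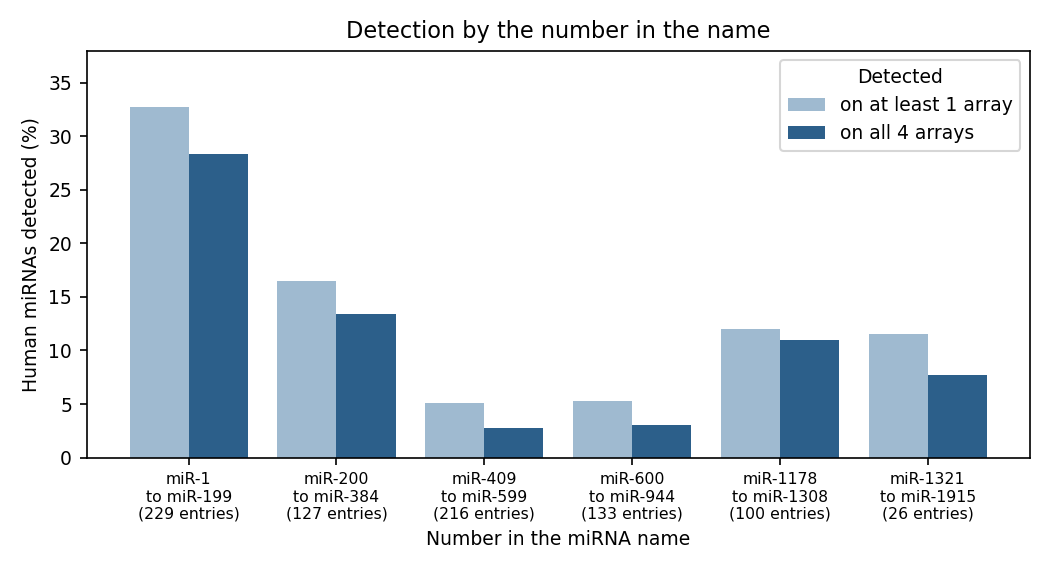
Share of human miRNAs detected, in percent, for 6 bands of the number in the name, with pale bars for detection on at least 1 array and dark bars for all 4 arrays. The band from miR-1178 to miR-1308 reaches 12% and 11%, above both bands from miR-409 to miR-944 and below those up to miR-384.

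A member was mostly found on every array or on none. Of the 12 detected members 11 were found on all arrays, compared with 104 of 127 among the other human miRNAs. The 88 members without a call stayed at the level of the background. Their highest probe signal on any array was 2.03 intensity units, and the highest ratio of a probe's signal to its own error was 1.62, while the software asks for 3. None of the 88 (0 members) reached 2 errors, and 83 were below 1 error in all their probes on all arrays. At least 1 spot well above background was seen for 10 of them, and never more than 1 spot. The median error of a member's probe was 1.12 and 1.49 for non-MG and 1.23 and 1.80 for MG. A probe at 3 errors is thus at 3.36 to 5.41, and these arrays cannot tell lower levels from absence.

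The only member found on fewer than 4 arrays was miR-1288-3p, which was flagged on MG replicate 1. The probe that gave the call read 4.79 with an error of 1.32 there, and 1.55, 1.89 and 1.82 on non-MG replicates 1 and 2 and MG replicate 2. Its other probe read 0.959 to 1.85 and did not reach 3 errors on any array. For that 1 array the software listed a total of 50.3 for the miRNA, 10.5 times the signal of the probe. This total equals the 4.79 of the probe plus 45.5, the total listed for miR-1280_v18.0 on the same array. It is therefore not the signal of miR-1288-3p alone. By its probes miR-1288-3p was dim, and it was not counted among the bright members.

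For this reason signals are given as the summed probes above 3 times their error, scaled to a common 75th percentile. The total in the scanner files exceeded this sum for 4 members. The excess was up to 7.17-fold for miR-1260a, whose total reached 626, 3.40- to 5.36-fold for miR-1280_v18.0 and 1.56- to 1.79-fold for miR-1290, besides miR-1288-3p. In the other 8 detected members both values were equal to rounding. On both non-MG arrays and MG replicate 2, the total of miR-1290 equalled its probe sum plus the total of miR-1280_v18.0. On MG replicate 1 it equalled its probe sum plus the total of miR-1288-3p. These totals thus include the signal of other entries. The source of the excess in miR-1260a and miR-1280_v18.0 was not tested.

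Counted by the sum of probes, 4 members reached an unscaled signal of 50 on at least 1 array, or 4% of the members, against 53 of the 751 other human miRNAs (7.06%). They were miR-1246, miR-1260a, miR-1290 and miR-1308_v15.0. All 4 had lower mean signals in MG cells, and the difference passed the test for miR-1290. Both MG arrays lay below both non-MG arrays in 3 of the 4, and in 23 of the 57 human miRNAs past this minimum (40.4%). They lay above in 0 of the 4 and in 12 of the 57 (21.1%). The median log2 difference was -0.26 over the 4 and -0.08 over the 57.

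The scaled signal of miR-1290 was 82.1 and 77.8 for non-MG and 63.0 and 56.5 for MG. Both MG arrays lay below both non-MG arrays. MG cells averaged 59.8 ± 4.62 (SD, n = 2), against 79.9 ± 3.08 (SD, n = 2) for non-MG, and the fold between geometric means was 0.747. On the log2 scale the difference was -0.42 with a standard error of 0.151. In a two-sided limma test over the 57 human miRNAs past the signal minimum, its adjusted p = 0.0313 after Benjamini-Hochberg adjustment.

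That fit called 14 of 57 miRNAs, which is 24.6%, so 1 of 4 members is close to the share among all miRNAs tested. Of the 14, 6 were higher and 8 lower in MG cells, against 7 and 4 under median scaling, 6 and 5 under quantile normalization, 3 and 3 without normalization, 5 and 0 under normexp background correction, and 3 and 0 without non-MG replicate 2. In this fit limma gave every miRNA the same spread, and the p-values rest on that pooled value. Fitted over the 115 human miRNAs detected on all 4 arrays, with no signal minimum, the same difference was not called (limma, adjusted p = 0.119). Whether it was called with an array left out of the fit over the 57 depended on the array. The adjusted p by limma was 0.127 (fold change 0.767) when non-MG replicate 1 was dropped, 0.143 (0.718) when non-MG replicate 2 was, and 0.132 (0.771) when MG replicate 2 was, and only dropping MG replicate 1 kept the call.

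miR-1246, which has also been described as a fragment of the U2 small nuclear RNA, read 250 and 265 for non-MG and 211 and 221 for MG. The groups did not overlap. The MG mean was 216 ± 7.22 (SD, n = 2) and the non-MG mean 257 ± 10.9 (SD, n = 2), giving a fold change of 0.841. The log2 difference of -0.25 had a standard error of 0.151 and did not pass the test (limma, adjusted p = 0.217).

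miR-1308_v15.0, an entry that was withdrawn as a transfer RNA fragment, read 173 and 197 for non-MG and 157 and 149 for MG. Again both MG values lay below both non-MG values. The means of 153 ± 6.14 (SD, n = 2) and 185 ± 17.1 (SD, n = 2) gave a fold change of 0.829. The log2 difference was -0.27 (limma, adjusted p = 0.191).

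For miR-1260a, whose sequence resembles a transfer RNA end, the non-MG arrays read 117 and 109 and the MG arrays 126 and 80.1. The MG values lay on either side of the non-MG values. MG cells averaged 103 ± 32.2 (SD, n = 2), against 113 ± 6.17 (SD, n = 2), with a fold change of 0.888 (limma, adjusted p = 0.447). The result depended on the MG array used. Without MG replicate 1 the fold change was 0.709 and was called (limma, adjusted p = 0.0363), and without MG replicate 2 it was 1.09. With the totals of the scanner files it was 1.79. Before scaling these totals were 124 and 626 for non-MG and 602 and 564 for MG. Only on non-MG replicate 1 did the total equal the probe sum, and the 1.79 rests on that array.

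**Figure D2:**
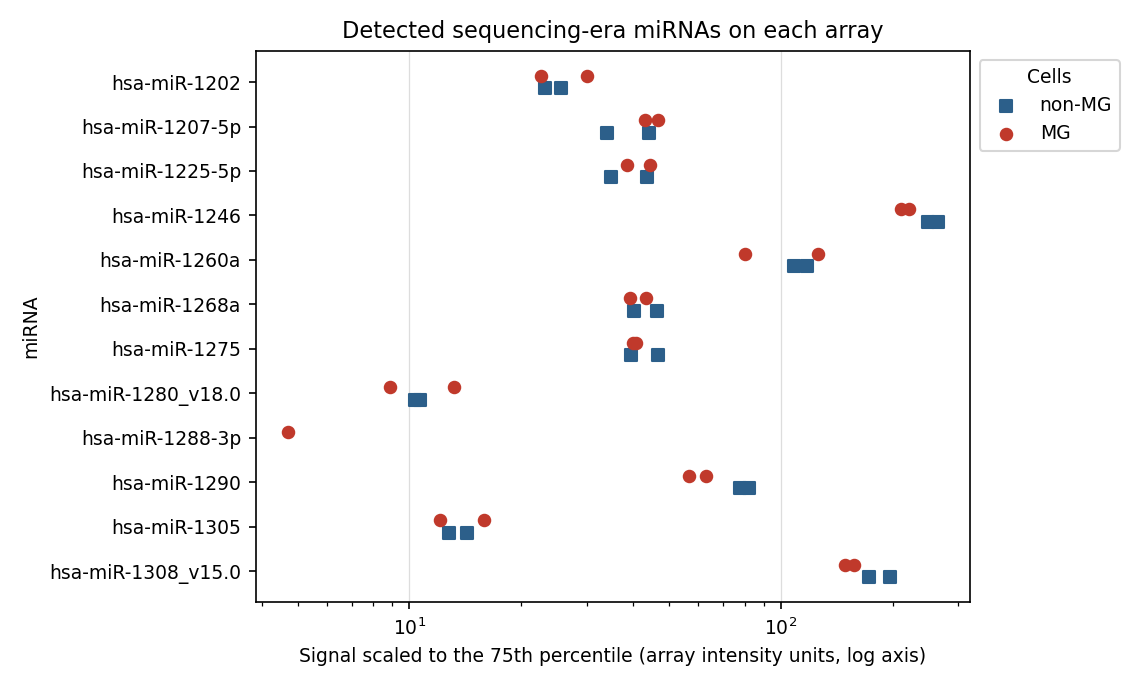
Scaled signal in array intensity units on a log axis for the 12 detected members, ordered by the number in the name, with blue squares for the 2 non-MG arrays and red circles for the 2 MG arrays. The MG values lie below both non-MG values in miR-1246, miR-1290 and miR-1308_v15.0, and miR-1288-3p has a value on 1 MG array only.

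Below the minimum of 50, 7 members were detected on all 4 arrays. In each of them the MG and non-MG arrays overlapped. miR-1207-5p, an entry from the locus of the long non-coding RNA PVT1, read 34.1 and 44.2 for non-MG and 46.8 and 43.0 for MG, a fold change of 1.15 (limma over 115 miRNAs, adjusted p = 0.482). miR-1225-5p, reported as a mirtron, read 34.9 and 43.5 in non-MG cells and 38.7 and 44.5 in MG cells (fold change 1.06, adjusted p = 0.803, limma). For miR-1202 the values were 23.1 and 25.7 for non-MG and 30.1 and 22.6 for MG, a fold change of 1.07.

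These 3 had MG means above non-MG means, and 2 had them below. miR-1268a read 46.3 and 40.4 in non-MG cells and 39.3 and 43.4 in MG cells (fold change 0.955). miR-1275 was measured at 39.4 and 46.7 against 40.0 and 40.7 (fold change 0.941). The dimmest were miR-1305, with 12.8 and 14.3 against 15.9 and 12.1 in MG cells, and miR-1280_v18.0, a withdrawn entry matching a transfer RNA, with 10.3 and 10.7 against 13.2 and 8.89. Their fold changes were both 1.03, and the standard errors of 0.177 and 0.196 on the log2 scale show how little a difference of this size could be resolved.

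Over the 115 human miRNAs detected on every array, limma called 11, or 9.57%, of which 3 were higher and 8 lower in MG cells (5 and 6 under quantile normalization, 6 and 1 under normexp). Of the 11 members in that fit it called 0, and 1 of them, miR-1290, had an unadjusted p under 0.05. The fold was above 1 in 5 members and below 1 in 6. The members' median log2 difference was -0.07 and that of all 115 miRNAs was -0.11. Both MG arrays lay below both non-MG arrays in 3 of the 11 members (miR-1246, miR-1290 and miR-1308_v15.0), while this held for 40.0% of the 115 miRNAs. Both lay above in 0 of the 11 members, against 15.7% of the 115. These counts depended on the processing. The normexp correction added an offset of 50 to every spot before the probes of a miRNA were summed. With it the mean log2 signal of miR-1280_v18.0 was 7.24 in MG and 7.13 in non-MG cells. With the probe sums it was 3.44 and 3.39. Such an offset draws the folds of dim miRNAs toward 1. Under normexp 6 members lay above and 1 below, beside 29.6% and 13.9% of all 115 miRNAs, and under quantile normalization 4 lay above and 3 below, beside 20.9% and 27.0%. Without MG replicate 2, where 1 MG array is set against both non-MG arrays, 5 lay above and 5 below, beside 22.3% and 53.7% of 121 miRNAs. The non-MG arrays occupied slide row 1 and the MG arrays slide row 2 of the same slide, and position on the slide and cell group cannot be told apart.

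**Figure D3:**
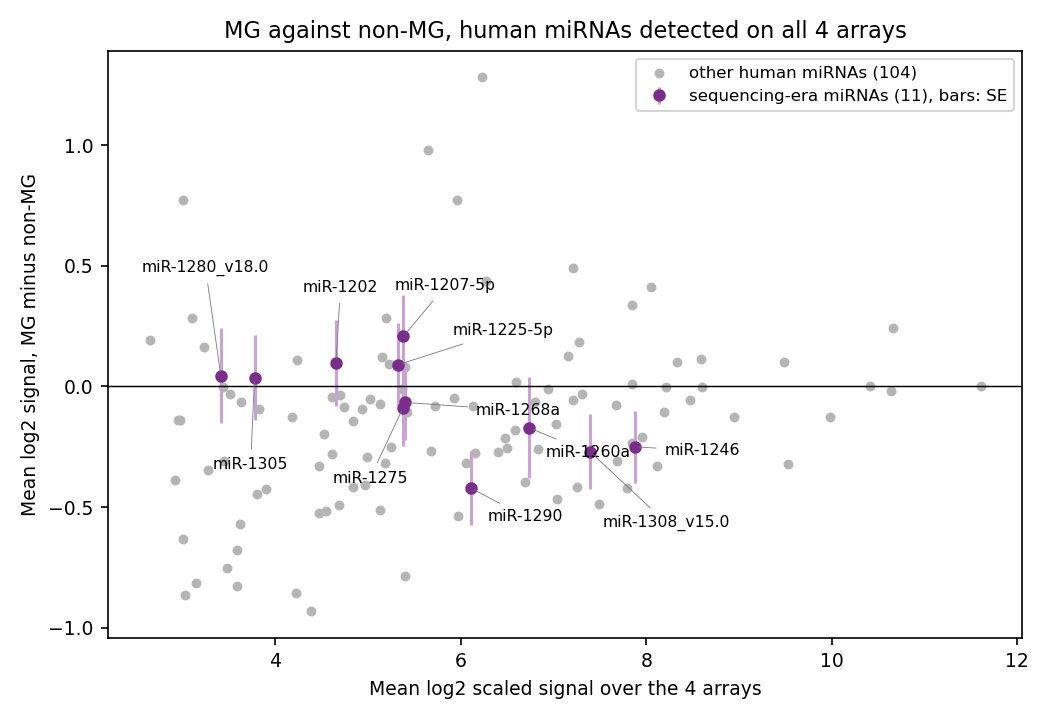
Mean log2 difference, MG minus non-MG, against the mean log2 scaled signal over the 4 arrays for the 115 human miRNAs detected on all of them. Purple points are the 11 members with bars of 1 standard error from limma and grey points the 104 others. The members lie between -0.42 (miR-1290) and 0.21 (miR-1207-5p), within the spread of the other miRNAs.

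Summed over all members, the scaled signal was 823 and 874 for non-MG and 786 and 722 for MG. This was 4.15% and 4.29% of the summed signal of all human miRNAs in non-MG cells and 3.84% and 3.85% in MG cells. Both MG sums were lower than both non-MG sums. The mean log2 difference was -0.17, with p = 0.333 in an exact two-sided permutation test, the smallest p that 6 arrangements of 2 against 2 arrays can give. Under normexp background correction, where the sums include the offset of 50 per spot, the difference turned to 0.0339.

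Each miRNA was read by separate probes, 2 in 85 of the members and 1 to 4 in the others, and the balance between both probes divided the detected members. The probes read nearly the same signal in miR-1202, miR-1207-5p, miR-1225-5p and miR-1305. In these the probe with the higher mean gave 50.6% to 54.2%, 50.7% to 54.1%, 49.3% to 51.6% and 46.4% to 55.0% of their summed signal on the 4 arrays. In the 4 bright members 1 probe carried most of it. Its share was 87.1% to 87.7% in miR-1308_v15.0, 91.3% to 95.7% in miR-1246, 97.0% to 97.5% in miR-1260a and 99.8% to 100% in miR-1290. miR-1268a (77.8% to 85.4%) and miR-1275 (66.6% to 73.4%) lay between.

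For miR-1290 the dimmer probe did not rise above background. Its unscaled signals were -1.14 and -0.0363 for non-MG and 0.119 and -0.256 for MG, while the other probe read 86.6, 73.7, 64.0 and 55.5. The call of miR-1290 is therefore the measurement of a single probe sequence. In miR-1280_v18.0 the dimmer probe was likewise below 3 errors on every array, and in miR-1260a it passed 3 errors on 1 array.

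The probes of miR-1246 and miR-1308_v15.0 could be compared with each other. In miR-1246 the brighter probe had a scaled fold change of 0.860 and the dimmer one 0.607. The dimmer probe read 11.1 and 23.2 in non-MG cells, a wide spread, against 9.11 and 10.4 in MG cells. In miR-1308_v15.0 the folds of both probes were 0.831 and 0.819. In both miRNAs, and in both probes, the MG arrays lay below the non-MG arrays. The brighter probes carry most of the sums that already separated the groups, and probes on the same arrays are not replicates. In miR-1275 the dimmer probe was lower on both MG arrays (fold change 0.833) while the brighter one overlapped (0.992). In miR-1305 the probes moved to opposite sides of 1, at 0.943 and 1.12, with overlapping arrays.

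**Figure D4:**
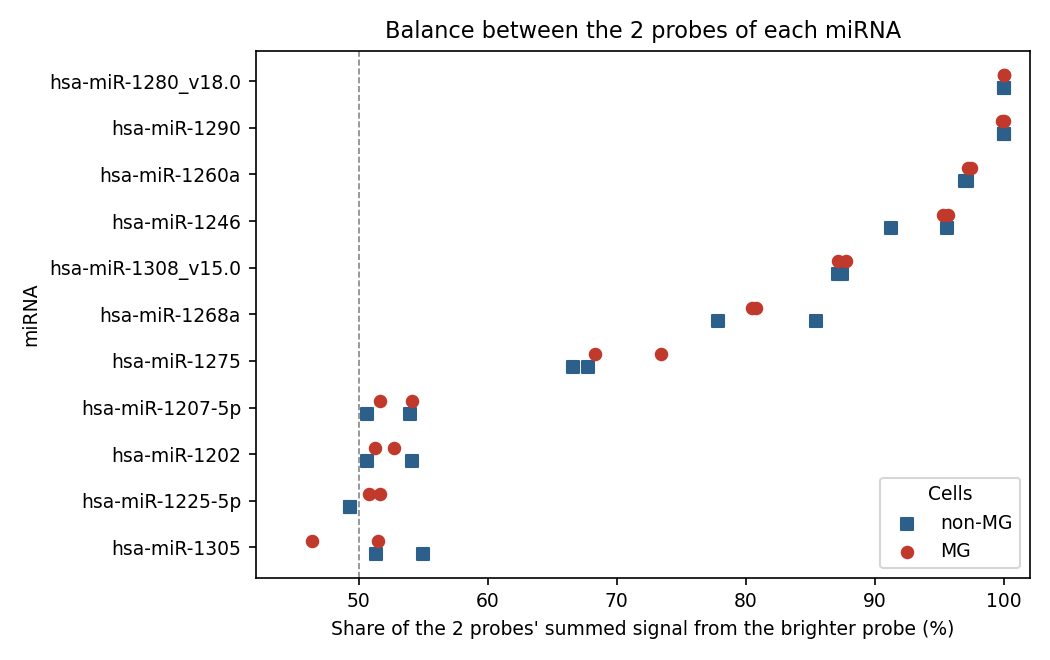
Share of the summed signal of both probes that came from the brighter probe, in percent, for the 11 members detected on all 4 arrays, with blue squares for non-MG and red circles for MG arrays and a dashed line at 50% (negative signals counted as 0). In miR-1202, miR-1207-5p, miR-1225-5p and miR-1305 both probes read nearly alike, and in miR-1290 and miR-1280_v18.0 1 probe gave practically the whole signal.

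The members, of which 12 of 100 were detected, were also grouped by what is known of their origin. Of the 16 mirtron-reported entries (miR-1224 to miR-1238), 1 was detected, miR-1225-5p. Of the 6 entries of the PVT1 locus, 1 was detected, miR-1207-5p, and its opposite arm miR-1207-3p was not. Of the 7 entries noted as matching another class of non-coding RNA, 4 were detected, namely miR-1246, miR-1260a, miR-1280_v18.0 and miR-1308_v15.0, while miR-1201_v15.0, miR-1248 and miR-1291, which match small nucleolar RNAs, were not. The summed scaled signal of that group was 550 to 581 in non-MG cells and 459 to 507 in MG cells. Both entries described in stem-like tumour cells, miR-1246 and miR-1290, were detected. Their sums were 332 to 343 in non-MG and 274 to 278 in MG cells. Among the 115 human miRNAs detected on every array, 40.0% had both MG arrays below both non-MG arrays. Since the group with other RNA classes and the tumour group share miR-1246, they are not separate measurements. Of the 5 members whose name carries the suffix of an older registry release, 2 were detected.

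Among the 9 printed sequences, 4 contain the motif GGGG on their own strand, which was looked for after the detected sequences had been read. They are shown with the run of G in capitals.

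miR-1202: gugccagcugcaguGGGGGag
miR-1225-5p: guggguacggcccaguGGGGGG
miR-1268a: cgggcguggugguGGGGG
miR-1275: guGGGGGagaggcuguc

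The run lies at or near the 3′ end in 3 of them and near the 5′ end in miR-1275. In the whole set, 7 of the 82 members with a sequence hold GGGG, as do 47 of the 737 human miRNAs of the array with a sequence (6.38%). A sequence was matched for 9 of the 12 detected members, or 75%, and for 73 of the 88 undetected members, or 83.0%. The motif was in 4 of the 9 (44.4%) and in 3 of the 73 (4.11%). Among the other human miRNAs it was in 4 of 104 detected entries (3.85%) and 36 of 551 undetected entries (6.53%). The motif was picked from the detected members' own sequences, so its higher share among them was not tested.

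Seeds linked few members to other miRNAs of the array. Of the 82 members with a sequence, 5 shared their seed with another human entry, and 2 of the 5 with an entry that was detected. The first is miR-1297, which has the same first 15 bases, in capitals here, as miR-26b-5p.

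miR-1297: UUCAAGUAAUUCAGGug
miR-26b-5p: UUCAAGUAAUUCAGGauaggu

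miR-26b-5p was detected on all 4 arrays, at 41.7 to 60.2 before scaling, and miR-26a-5p, which shares the first 10 bases, at 33.0 to 44.7. miR-1297 was detected on 0 of 4 arrays. The other is miR-1271-5p, which shares the seed of miR-96-5p, shown in capitals.

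miR-1271-5p: cUUGGCACcuagcaagcacuca
miR-96-5p: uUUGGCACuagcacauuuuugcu

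miR-96-5p, known from sensory cells, was detected on all 4 arrays at 44.9 to 58.1, and miR-1271-5p on 0 arrays. The remaining 3 members with a shared seed, miR-1255a, miR-1255b-5p and miR-1270, had no detected partner. The members that share a seed with miR-26a-5p, miR-26b-5p and miR-96-5p were thus not called where these were detected. The sequences differ outside the shared bases, and whether the members' probes can bind these miRNAs was not tested.

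The identity of the cells was checked against miRNAs fixed for epithelium and for other cell types, taking the brighter arm of each where any arm was detected. Of 8 epithelial and intestinal markers, 5 were detected on all arrays (miR-200a, miR-200b, miR-200c, miR-141 and miR-429), with a summed scaled signal of 669 to 730 in non-MG cells and 631 to 651 in MG cells. The intestinal markers miR-192-5p, miR-194-5p and miR-215-5p were not detected on any array, nor were the opposite arms of miR-192 and miR-194. Of 13 markers of other cell types, 2 were detected, miR-126-3p on all arrays and miR-145-5p on 3. Their sum was 15.3 to 15.9 in non-MG cells and 8.78 to 14.6 in MG cells, and its part in the members' lower signals was not tested. The markers of liver, neurons, muscle and blood cells were not detected, with both arms of miR-122, miR-124 and miR-223 among them.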

How the data were processed

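Total RNA was labelled with Cy3 and hybridised to 1-colour Agilent human miRNA arrays. The labels cite a cRNA labelling protocol for gene expression arrays. The authors deposited Feature Extraction 10.7.1.1 output with intensity values per spot, probe and miRNA, background-subtracted and not normalized between arrays. The methods name GeneSpring and give no normalization. Each array had 15739 spots, 15024 of them for 939 miRNAs through 2689 probes. No spot was saturated (0 spots). Precision is limited by having 2 arrays per group.

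The sum of a miRNA's probes above 3 times their error was its signal, and it differed from the authors' deposited table of intensity values by at most 5.7e-05 percent for the 142 miRNAs with a detection call. Each array was divided by its 75th percentile over the 116 miRNAs found on every array (158 and 142 for non-MG, 153 and 148 for MG) and brought to their mean. After a floor of 1, log2 was taken. Fold changes divide the geometric mean of MG by that of non-MG. The test was limma 3.58.1 in R 4.3.3 (lmFit with eBayes, two-sided, adjusted by Benjamini-Hochberg, threshold 0.05), once over the 57 human miRNAs detected and at 50 or more on at least 1 array and once over the 115 detected on all arrays. The code was tested on simulated data. Tables were handled in Python 3.11.15 with pandas 2.3.3.

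Named are all members past the minimum, all detected on every array, and those detected on fewer. The members and lists were chosen with earlier results of these data known. Sequences and positions come from RefSeq, assembly GRCh38.p14, matched by name for 82 of the 100 members; the scanner files name the earlier build hg19. Alternatives covered the signal, background correction, normalization, floor, minimum, filter, detection flag, variance model, replicate block and each array left out in turn. Same-numbered arrays deviated together, with a correlation of 0.481 over the 57 miRNAs, 0.263 over the 115 and 0.249 over the 11 members among them. However, there are 2 pairs only and no shared day or batch is given, so the replicate numbers were not used as pairs.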

Additional observations from a re-analysis of the deposited data

How the results depend on the processing

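The direction of miR-1246 and of miR-1308_v15.0 was kept in all 16 alternatives run, and that of miR-1290 in all 15. Their fold changes were 0.719 to 0.970, 0.710 to 0.923 and 0.688 to 0.896. Several alternatives could not change it. The floor, the eBayes trend, the block and the other minimums left these 3 folds as they were, and the authors' table equals the probe sum. In miR-1246 and miR-1308_v15.0 the lowest fold came with the totals of the scanner files. These equalled their probe sums, so only the scaling differed there. The lowest fold of miR-1290, 0.688, also came with the totals, which for miR-1290 include the total of another entry. Adjusted p-values (limma) of miR-1290 ranged from 0.0184 to 0.470, and its call was lost in 10 of the 15. The number of members called among the bright miRNAs was 1, and 0 with the totals of the scanner files, normexp background correction, no normalization, median scaling, the eBayes trend, the replicate block, and minimums of 20 and 100; leaving out 1 array in turn gave 0 to 2, with 2 (miR-1260a and miR-1290) without MG replicate 1. With the replicate block miR-1290 had an adjusted p = 0.0511 (limma), and the block changed no other call of a member. The count among the 115 miRNAs was 0, and 1 under quantile normalization, where 9 miRNAs had no spread between replicates. Members past the minimum numbered 4, and 9 at a minimum of 20. The limma calls over all 57 miRNAs numbered 14, against 5 under normexp (5 higher), 6 without normalization, 8 with the block, 9 of 44 at a minimum of 100, 0 of 89 with the totals, and 3 to 11 with 1 array left out. Over the 115 they numbered 11, against 24 with the eBayes trend, 18 with the block, 7 under normexp, 1 of 139 with detection on at least 1 array, and 0 with the totals or a floor of 10; leaving out 1 array gave 0 without non-MG replicate 1 and without MG replicate 2, 8 without non-MG replicate 2 and 18 without MG replicate 1. Fold changes turned with the totals of the scanner files in miR-1202 (0.915), miR-1207-5p (0.988), miR-1225-5p (0.911), miR-1260a (1.79), miR-1280_v18.0 (0.730) and miR-1305 (0.877). In miR-1202, miR-1207-5p, miR-1225-5p and miR-1305 the total equals the probe sum. Their folds therefore moved only with the scaling, which used the 75th percentile of the totals. Some totals include the signal of other entries, and this percentile may do so too. Folds and calls under the totals are therefore not a clean alternative to the probe sums. Under normexp the fold turned in miR-1268a (1.04) and miR-1275 (1.03). With 1 array left out, folds crossed 1 in miR-1202 (0.926 to 1.21), miR-1225-5p (0.953 to 1.17), miR-1260a (0.709 to 1.09), miR-1268a (0.880 to 1.02), miR-1275 (0.865 to 1.01), miR-1280_v18.0 (0.847 to 1.23) and miR-1305 (0.893 to 1.15). The log2 difference of the summed signal was -0.17, and 0.0339 under normexp. How far the offset accounts for the change of sign was not tested. Scaling to the 75th percentile over all miRNAs was not run, since it falls on undetected miRNAs on all arrays. With 7.44% to 9.44% of the members' spots well above background, a comparison was possible for 11 of the 100 members.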
